A study of Mus musculus with 6 samples.

Results

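The actin machinery that moves the meiotic spindle and shapes the cortex of the mouse oocyte was examined through 10 genes, out of 28738 in the deposited table. They were taken by name, after Ensembl gene IDs had been paired with mouse symbols: the nucleators Fmn2, Spire1 and Spire2, the Arp2/3 complex genes Arpc2, Actr2 and Actr3, the filament turnover and monomer genes Cfl1 and Pfn1, and the myosin genes Myo5b and Myo10. All 10 were found, and all 10 passed the filter on low values. The values came from RNA sequencing of fully grown germinal vesicle oocytes, which are arrested before the first meiotic division. The knockout oocytes carried a conditional knockout of Uba3 (Uba3 cKO), which encodes the catalytic subunit of the NEDD8-activating enzyme, and they were set against oocytes labelled control. Each genotype had 3 libraries, and each library was a pool of approximately 150 oocytes. Both genotypes had the strain label C57/Bl6/N;129SvEv7. The Cre driver of the knockout, the age of the mice and the alleles carried by the controls are not stated in the labels. Nor is it stated which pools came from different mice, and the p-values therefore reflect variation among these pools, which may be technical.

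An oocyte divides asymmetrically: the spindle moves from the centre to the cortex, and a small polar body is cut off there. In mouse oocytes a cytoplasmic actin network built by the formin FMN2 together with SPIRE1 and SPIRE2 carries out the movement, and vesicles that bear these nucleators and the motor myosin Vb act as nodes of the network. The Arp2/3 complex nucleates branched filaments and thickens the actin cap of the cortex above the chromosomes. Profilin (PFN1) supplies actin monomers to formins, and cofilin (CFL1) severs old filaments and returns monomers to the pool.

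Of the promoters in RefSeq's table for GRCm38.p6, 9 belonged to 8 of the 10 genes, and 3 of these promoters are shown because they belong to a nucleator that was lower in the knockout (Spire2), its partner that was not called (Fmn2) and the gene with the largest difference (Cfl1). Each runs 5′ to 3′ from 250 bases before to 50 bases after the start of transcription. Capitals mark every match, on either strand, to CANNTG (the E-box, bound by basic helix-loop-helix factors such as FIGLA), TAATTG (a core bound by homeobox factors such as NOBOX) and CCAAT.
Spire2 (chr8:123332463-123332762, plus strand): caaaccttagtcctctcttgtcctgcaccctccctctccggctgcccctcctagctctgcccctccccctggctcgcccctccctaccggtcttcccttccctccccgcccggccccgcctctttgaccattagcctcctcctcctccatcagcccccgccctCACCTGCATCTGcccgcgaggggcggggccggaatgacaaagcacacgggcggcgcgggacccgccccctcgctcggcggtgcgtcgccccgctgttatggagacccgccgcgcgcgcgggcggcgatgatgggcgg
Fmn2 (chr1:174501575-174501874, plus strand): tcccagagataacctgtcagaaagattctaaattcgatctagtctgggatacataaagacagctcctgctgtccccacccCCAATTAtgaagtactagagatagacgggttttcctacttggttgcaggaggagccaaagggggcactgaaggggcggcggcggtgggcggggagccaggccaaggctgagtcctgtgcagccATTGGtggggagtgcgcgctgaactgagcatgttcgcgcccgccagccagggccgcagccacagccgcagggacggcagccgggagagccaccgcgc
Cfl1 (chr19:5490205-5490504, plus strand): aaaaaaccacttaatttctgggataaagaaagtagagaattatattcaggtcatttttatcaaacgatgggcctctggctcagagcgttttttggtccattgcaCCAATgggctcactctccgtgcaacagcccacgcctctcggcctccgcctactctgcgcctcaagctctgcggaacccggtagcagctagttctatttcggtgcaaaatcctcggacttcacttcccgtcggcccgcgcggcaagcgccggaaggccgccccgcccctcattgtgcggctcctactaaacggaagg
The coordinates are those of GRCm38.p6, while the submitters name GRCm39. The Spire2 promoter held 2 adjacent E-boxes and no match to either other motif. The Fmn2 promoter held 1 TAATTG and 2 CCAAT matches, of which 1 CCAAT overlapped the TAATTG, and no E-box. The Cfl1 promoter held 1 CCAAT alone. Among the promoters not shown, those of Arpc2 and Pfn1, which were not called, also held 2 E-boxes each. Those of Actr2 and Actr3 held 1 each, and those of Myo10 held none. Among all 32851 promoters of that length, 72.3% held CANNTG, 8.0% TAATTG and 37.4% CCAAT. The GC box core GGGCGG, searched on both strands as well, occurred 7 times in the Spire2 promoter and 2 times in each of the Fmn2 and Cfl1 promoters, against a mean of 0.77 over all promoters, of which 35.7% held it. It occurred 5 times in the Actr2 promoter and in 1 of Myo10, 3 times in that of Arpc2, 2 times in that of Pfn1 and 1 time in that of Actr3. This motif holds only G and C, and the windows differed in GC content. It was 72.3% for Spire2, 72.0% for Actr2, 70.0% for Arpc2, 61.0% for Fmn2 and 54.7% for Cfl1. The CArG box of serum response factor, which 1.6% of all promoters held, was in none of the 9. TAATTA, held by 5.3% of all promoters, was also in none of the 9, and TATAAA, held by 13.6%, was in 1, an alternative promoter of Myo10. These matches describe letters in a window and were not tested against the expression values.

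Of the 10 genes, 3 were called: Spire1 and Spire2 fell and Cfl1 rose in Uba3 cKO oocytes, while 7 were not called. Called here means an adjusted p (Benjamini-Hochberg) below 0.05 in a limma fit over all 17450 genes that passed the filter on low values. By that rule 8.14% of all tested genes were called, 5.64% as higher and 2.50% as lower. No overlap between the genotypes was seen for 3 of the 10 genes, the called ones, against 27.9% of all tested genes. The median difference was 0.01 on the log2 scale over the 10 genes and -0.01 over all tested genes. The targeted gene Uba3 stood at 10.03, 10.16 and 10.36 in Uba3 cKO libraries 1, 2 and 3 and at 11.37, 11.46 and 11.34 in the control libraries (-1.21, SE 0.10, adjusted p = 2.07e-05 in limma). Pearson correlations between libraries lay between 0.995 and 0.998, and the number of reads behind each value is unknown.

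Oocyte genes were expressed at high levels, and markers of other ovarian cells were also detected. Zp2, a zona pellucida gene, lay between 15.98 and 16.05 in Uba3 cKO and between 16.25 and 16.40 in control libraries. Among 15 oocyte markers 1 rose and 2, Zp2 among them, fell, and their summed linear value was 481236 to 537626 in Uba3 cKO and 543982 to 607132 in control libraries, without overlap. Of 16 theca, stroma and smooth muscle markers, 5 fell, 0 rose and 11 were not called, where 2.50% of all tested genes were called lower. Their summed linear value was 5589 to 6561 in Uba3 cKO and 6634 to 8897 in control libraries, separated narrowly between library 1 of each genotype. Granulosa and cumulus markers summed to 20170 to 24860 in Uba3 cKO and 22604 to 31684 in control libraries, with 2 of 15 higher and 2 lower. Endothelial markers summed to 4051 to 4786 in Uba3 cKO and 4043 to 4370 in control libraries (1 of 8 fell), and blood and immune markers to 530 to 579 in Uba3 cKO and 578 to 691 in control libraries (2 of 8 that passed the filter fell). Such sums are led by the most abundant markers. Over all 6 libraries the endothelial marker Pecam1 stood at 11.13 to 11.40 and Cdh5 at 4.14 to 4.38. Myh11, the highest stromal marker, stood at 11.03 to 11.54. The blood markers Hba-a2, Hbb-bt and C1qa were under the filter, and none of the stromal markers was: the lowest, Des, stood at 4.19 to 4.24 in Uba3 cKO and 4.22 to 4.34 in control libraries. The part of such RNA in the differences below was not tested, and fewer cells of a type in a pool cannot be told apart from less RNA per cell.

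**Figure D1:**
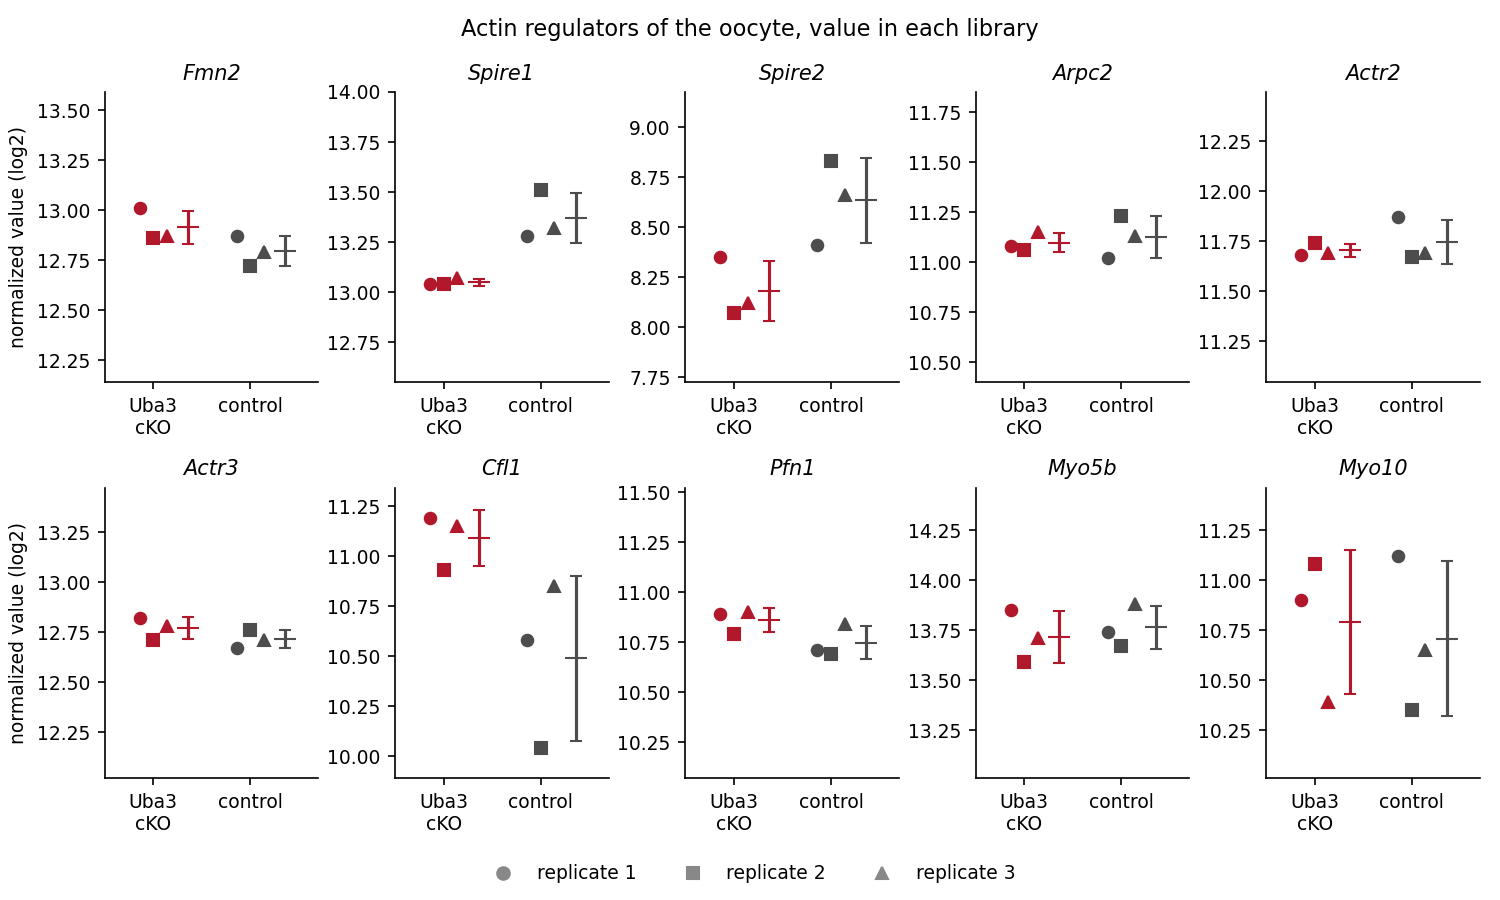
Normalized log2 value of each gene in each library, Uba3 cKO (red) left of control (grey), with the mean and SD of the 3 libraries beside the points; every panel spans the same log2 range around its own values. The 3 Uba3 cKO libraries lie under all control libraries for Spire1 and Spire2 and above them for Cfl1, and the libraries of the other 7 genes overlap.

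Among the nucleators, the SPIRE genes were lower in knockout oocytes and Fmn2 was not called. Spire1 (ENSMUSG00000024533, chromosome 18) had log2 values of 13.04, 13.04 and 13.07 in Uba3 cKO libraries 1, 2 and 3, and 13.28, 13.51 and 13.32 in control libraries 1, 2 and 3. The knockout libraries lay within a narrow band under the lowest control, and control library 2 was the highest. Spire1 averaged 13.05 ± 0.02 in Uba3 cKO and 13.37 ± 0.13 in control oocytes (SD, n = 3 each), a difference of -0.32 (SE 0.08, 95% interval -0.50 to -0.14, adjusted p = 0.0335 in limma), which is a 1.25-fold lower level. Spire2 (ENSMUSG00000010154, chromosome 8) had values of 8.35, 8.07 and 8.12 in Uba3 cKO libraries and 8.41, 8.83 and 8.66 in control libraries. The groups were separated by a small margin, between Uba3 cKO library 1 and control library 1. Its means were 8.18 ± 0.15 in Uba3 cKO and 8.63 ± 0.21 in control oocytes (SD, n = 3 each), and the difference was -0.45 (SE 0.12, 95% interval -0.72 to -0.19, adjusted p = 0.0394 in limma), a 1.37-fold lower level. Gm20388, a protein-coding gene on the same strand, overlaps Spire2 and is absent from the deposited table, so the division of their reads is uncertain. A processed pseudogene on the opposite strand, Gm17669, overlaps Spire1 and is also absent from the table.

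Fmn2 (ENSMUSG00000028354, chromosome 1), whose product nucleates straight filaments with the SPIRE proteins, stood at 13.01, 12.86 and 12.87 in Uba3 cKO and at 12.87, 12.72 and 12.79 in control libraries. The groups overlapped, and the difference of 0.12 (95% interval -0.06 to 0.30) was not called (adjusted p = 0.436 in limma). Both SPIRE calls were near the threshold: leaving out any library but control 1 ended that of Spire1 (differences of -0.37 to -0.25, adjusted p 0.0183 to 0.123 over the 6 fits), and leaving out Uba3 cKO 2 or 3 or control 2 or 3 ended that of Spire2 (-0.56 to -0.35, adjusted p 0.0105 to 0.156). The call of Spire2 also ended after correction for transcript length and GC content (-0.36, adjusted p = 0.0692) and without an intensity trend (adjusted p = 0.0621), within a range of 0.0105 to 0.156 over 17 alternatives.

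**Figure D2:**
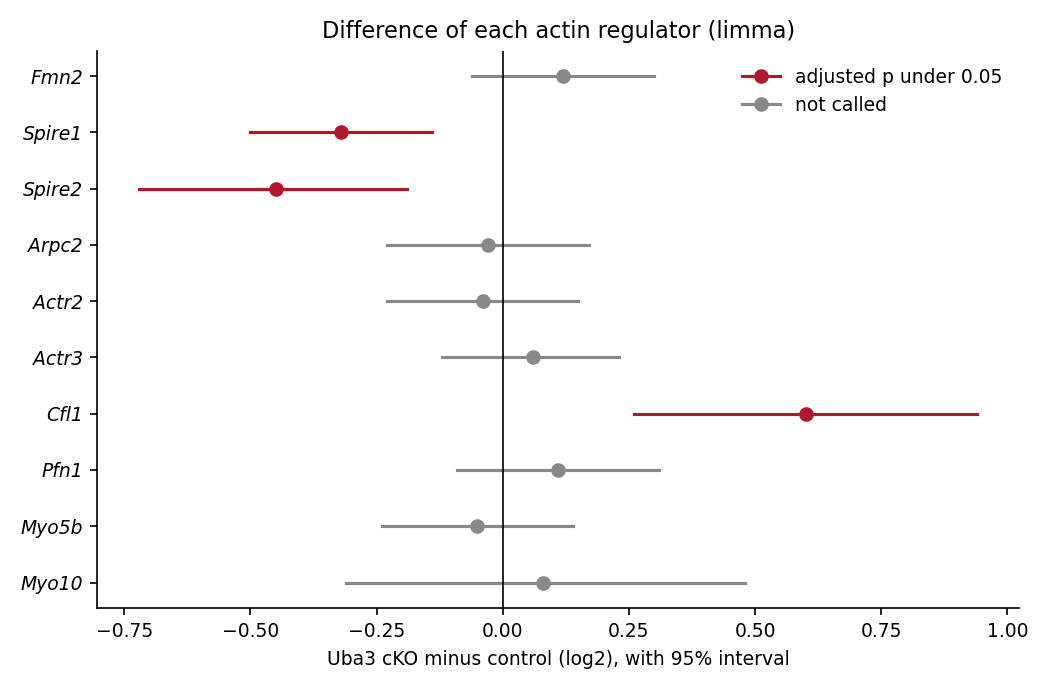
Log2 difference of each gene, taken as Uba3 cKO minus control (points), with its 95% interval from limma (lines); red marks an adjusted p under 0.05. The intervals of Spire1 (-0.50 to -0.14), Spire2 (-0.72 to -0.19) and Cfl1 (0.26 to 0.94) lie to one side of 0.

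A ratio within a library does not change when all values of that library are multiplied by 1 factor. The ratios of the SPIRE genes to Fmn2 separated the genotypes, but they use the same SPIRE values as above and are not independent support. The log2 ratio of Spire1 to Fmn2 was 0.03, 0.18 and 0.20 in Uba3 cKO and 0.41, 0.79 and 0.53 in control libraries. Each knockout ratio was under each control ratio, and the means of 0.14 ± 0.09 in Uba3 cKO and 0.58 ± 0.20 in control oocytes (SD, n = 3 each) differed by -0.44. The log2 ratio of Spire2 to Fmn2 was -4.65, -4.78 and -4.75 in Uba3 cKO and -4.46, -3.89 and -4.13 in control libraries, a difference of -0.57, again without overlap. For each of these ratios an exact permutation test (two-sided) returned p = 0.1, the lowest value possible with 3 libraries against 3, and 0.2 after Benjamini-Hochberg adjustment over the 6 ratios tested. The ratio of Spire2 to Spire1 overlapped between the groups, with means of -4.87 ± 0.16 in Uba3 cKO and -4.74 ± 0.11 in control oocytes (SD, n = 3 each; exact permutation p = 0.2, adjusted 0.3), so a different change of the 2 SPIRE genes was not shown.

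None of the 3 Arp2/3 genes was called by limma, and 0 had an unadjusted p under 0.05. ACTR2 and ACTR3 are the actin-related subunits from which a branch starts, and ARPC2 holds the complex to the side of the mother filament. Actr3 (ENSMUSG00000026341, chromosome 1) stood at 12.82, 12.71 and 12.78 in Uba3 cKO and 12.67, 12.76 and 12.71 in control libraries (difference 0.06, 95% interval -0.12 to 0.23). Actr2 (ENSMUSG00000020152, chromosome 11) stood at 11.68, 11.74 and 11.69 in Uba3 cKO and 11.87, 11.67 and 11.69 in control libraries (-0.04, interval -0.23 to 0.15). Arpc2 (ENSMUSG00000006304, chromosome 1) stood at 11.08, 11.06 and 11.15 in Uba3 cKO and 11.02, 11.23 and 11.13 in control libraries (-0.03, interval -0.23 to 0.17). All 3 overlapped between groups, with adjusted p of 0.723, 0.834 and 0.879 in limma, and the intervals leave room for differences of up to 0.23 in size. The log2 ratio of Actr3 to Actr2 was 1.07 ± 0.08 in Uba3 cKO and 0.97 ± 0.15 in control oocytes (SD, n = 3 each; exact permutation p = 0.5, adjusted 0.6). Processed pseudogenes match stretches of these transcripts at 95% identity or more, including Gm8822 for Actr3 (98.8% over 2348 bases) and Gm9729 for Actr2 (95.1% over 265 bases), so the division of their reads is uncertain.

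Cfl1 had the largest difference of the 10 genes and rose in knockout oocytes, while Pfn1 was not called. Cfl1 (ENSMUSG00000056201, chromosome 19), the non-muscle cofilin gene, stood at 11.19, 10.93 and 11.15 in Uba3 cKO and at 10.58, 10.04 and 10.85 in control libraries. The knockout libraries lay close together above the highest control, whereas the controls were spread widely, with library 2 far lower than the others. The means were 11.09 ± 0.14 in Uba3 cKO and 10.49 ± 0.41 in control oocytes (SD, n = 3 each), and the difference was 0.60 (SE 0.16, 95% interval 0.26 to 0.94, adjusted p = 0.0346 in limma), a 1.52-fold higher level. The pooled SD of 0.31 was above that of 98.4% of tested genes, whose median was 0.10. Control 2 also had the highest summed oocyte markers (607132) and the highest summed granulosa and cumulus markers (31684). The part of such composition in the spread of Cfl1 was not tested. Without control 2 the difference of Cfl1 was 0.38 (adjusted p = 0.0966), and its call also ended without Uba3 cKO 1 (adjusted p = 0.114) or Uba3 cKO 3 (0.121), under quantile normalization (0.58, adjusted p = 0.0526), without an intensity trend (0.0948) and with robust empirical Bayes (0.0825), within a range of 0.00248 to 0.121 over 17 alternatives. The Cfl1 transcript shares 354 bases with Snx32, an overlapping gene on the opposite strand with a mean of 5.25. A pseudogene that is absent from the deposited table, Gm6180, matches Cfl1 at 98.8% over 498 bases. The division of reads among these 3 genes is therefore uncertain.

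Pfn1 (ENSMUSG00000018293, chromosome 11) stood at 10.89, 10.79 and 10.90 in Uba3 cKO and 10.71, 10.69 and 10.84 in control libraries. The groups overlapped, and the difference of 0.11 (95% interval -0.09 to 0.31) was not called (adjusted p = 0.530 in limma). The log2 ratio of Cfl1 to Pfn1 was 0.30, 0.14 and 0.25 in Uba3 cKO and -0.13, -0.65 and 0.00 in control libraries. Each knockout ratio was above each control ratio, and control library 2 was the lowest. The difference in this ratio was 0.49 (exact permutation p = 0.1, the smallest possible, and 0.2 adjusted over the 6 ratios), and it was 0.30 without control 2. The related depolymerizing genes were not called: Cfl2 averaged 12.11 ± 0.05 in Uba3 cKO and 12.04 ± 0.15 in control oocytes (SD, n = 3 each; 0.07, adjusted p = 0.731 in limma), and Dstn, chosen after its values were seen, stood at 11.30, 11.41 and 11.46 in Uba3 cKO and 11.24, 11.43 and 11.42 in control libraries (0.02, adjusted p = 0.922). Whether the difference of Cfl1 differs from theirs was not tested.

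Neither myosin gene was called by limma, and 0 of the 2 had an unadjusted p under 0.05. Myo5b (ENSMUSG00000025885, chromosome 18), which encodes the motor of the vesicle network, stood at 13.85, 13.59 and 13.71 in Uba3 cKO and at 13.74, 13.67 and 13.88 in control libraries. The groups overlapped throughout (difference -0.05, 95% interval -0.24 to 0.14, adjusted p = 0.799 in limma). An antisense gene that is absent from the deposited table overlaps Myo5b. Myo10 (ENSMUSG00000022272, chromosome 15), a motor of filopodia, stood at 10.90, 11.08 and 10.39 in Uba3 cKO and at 11.12, 10.35 and 10.65 in control libraries. Its libraries differed more within a genotype than between genotypes: the pooled SD of 0.37 was above that of 99.2% of tested genes, and the difference of 0.08 had an interval of -0.31 to 0.48 (adjusted p = 0.835 in limma). Its sign depended on the libraries, with -0.06 without Uba3 cKO 2 and -0.09 without control 2. The 3 libraries highest for Myo10 were Uba3 cKO 1 and 2 and control 1. Of the 15 granulosa and cumulus markers, 2 had the same 3 highest libraries, Amh and Gatm, and 7 were highest in control 2, where Myo10 was lowest and the summed markers stood at 31684. The part of granulosa RNA in the spread of Myo10 was not tested. Gm48996 and Gm2862, on the same strand, overlap Myo10, with means of 5.03 and 0.66, so the division of their reads is uncertain. The log2 ratio of Myo10 to Myo5b was -2.93 ± 0.41 in Uba3 cKO and -3.06 ± 0.38 in control oocytes (SD, n = 3 each; exact permutation p = 0.7, also after adjustment), and its difference of 0.13 turned to -0.08 without Uba3 cKO 2.

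**Figure D3:**
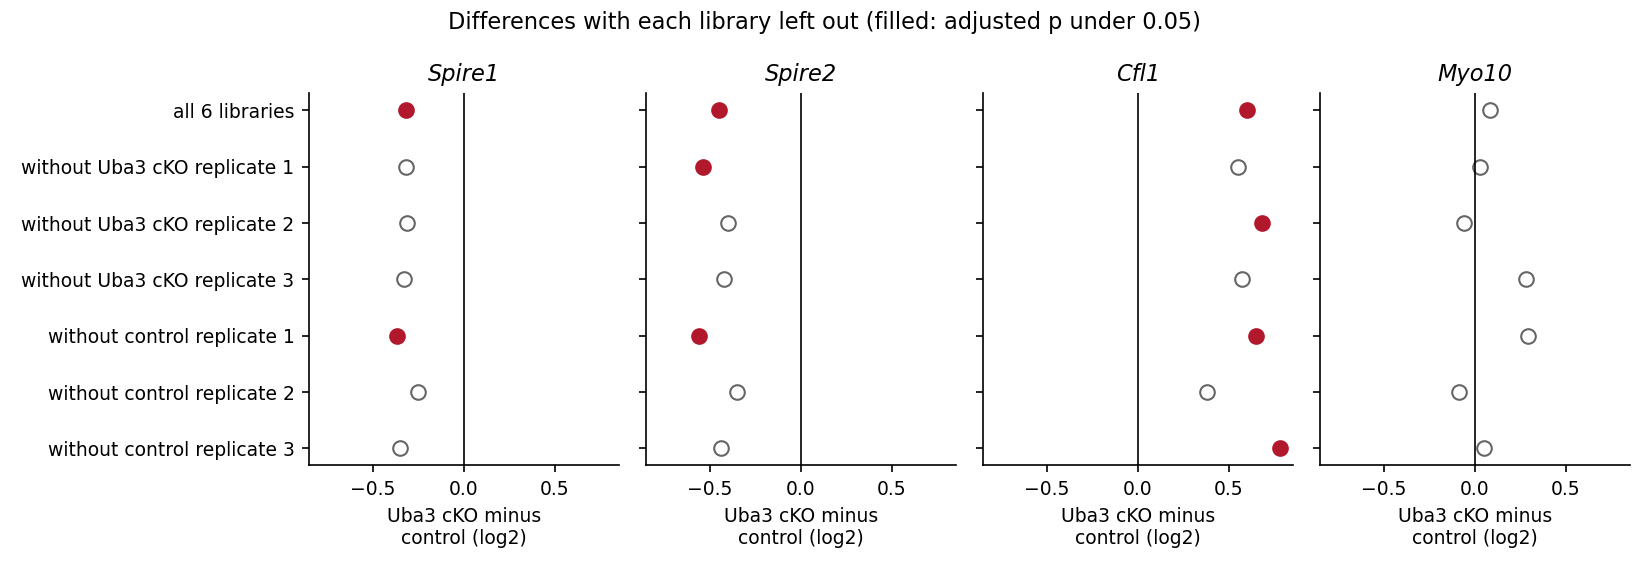
Log2 difference of Spire1, Spire2, Cfl1 and Myo10, taken as Uba3 cKO minus control (horizontal axis), with all libraries and with each library left out (rows); filled points have an adjusted p under 0.05. Spire1, Spire2 and Cfl1 keep their side of 0 in every row, with many open points, while Myo10 crosses it, between -0.09 and 0.29. For those 3 genes the side was fixed in advance, because their groups do not overlap.

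**Figure D4:**
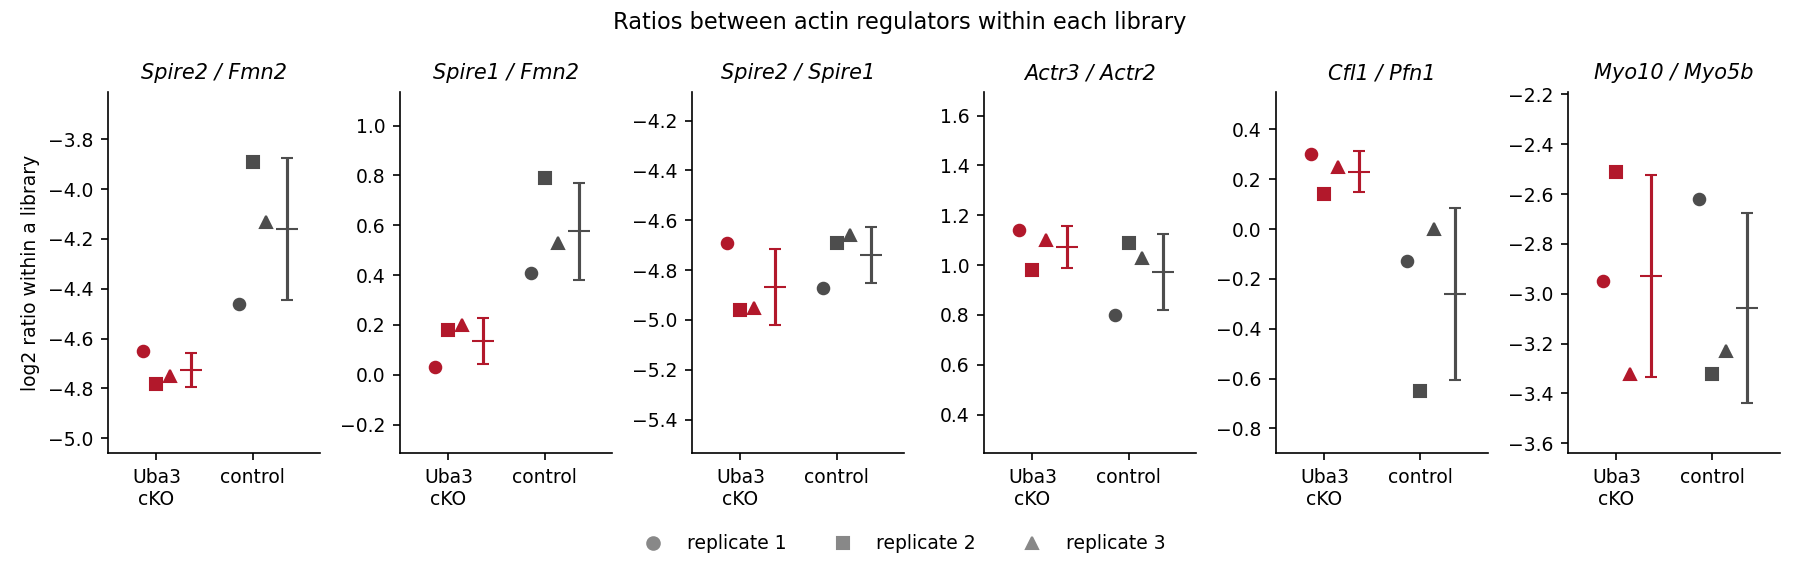
Log2 ratio of the values of 2 genes within each library, Uba3 cKO (red) left of control (grey), with the mean and SD of 3 libraries; every panel spans the same range. The groups do not overlap for Spire2 to Fmn2, Spire1 to Fmn2 and Cfl1 to Pfn1, and they overlap for the other 3 ratios.

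Set per kilobase of the principal annotated transcript, the 10 genes spanned a wide range of levels, with Actr3 highest and Spire2 lowest in both genotypes. Actr3 was at 11.41 ± 0.06 in Uba3 cKO and 11.36 ± 0.05 in control oocytes on this log2 level per kilobase (SD, n = 3 each). Spire2 was at 6.96 ± 0.15 in Uba3 cKO and 7.41 ± 0.21 in control oocytes, far under Spire1 at 10.72 ± 0.02 in Uba3 cKO and 11.04 ± 0.13 in control oocytes. In control oocytes the order after Actr3 was Spire1, Myo5b, Pfn1, Arpc2, Fmn2, Actr2, Cfl1, Myo10 and Spire2. There, Spire1 and Myo5b, Myo5b and Pfn1, and Myo10 and Spire2 overlapped between their libraries, and the other neighbours did not. In Uba3 cKO oocytes Spire1 held rank 4, behind Pfn1 and Myo5b, and Cfl1 held rank 7, just ahead of Actr2. Pfn1 and Myo5b overlapped there, as did Cfl1 and Actr2, and the other neighbours did not. Fmn2 per kilobase was at 10.22 ± 0.08 in Uba3 cKO and 10.11 ± 0.07 in control oocytes, above 90.6% of tested genes, and Spire2 was above 56.8%. The order rests on the transcript chosen: per kilobase of coding sequence Cfl1 held rank 4 and Myo5b rank 6, while Actr3, Myo10 and Spire2 held ranks 1, 9 and 10 as before.

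By the nearness of their profiles over the 6 libraries, the genes most like Spire1 among 145 other actin genes were Limk2, Cap1 and Arpc5l, and those most like Cfl1 were Wasf2, Cobl and Myh10. Nearness is the root mean square difference between log2 values after each gene is centred on its own mean, and it was 0.05, 0.10 and 0.10 for the genes near Spire1 and 0.15, 0.17 and 0.23 for those near Cfl1. LIMK2 is a kinase that inactivates cofilin by phosphorylation, and its gene had a difference of -0.30 that was not called (adjusted p = 0.0566 in limma). Cap1, for a protein that binds actin monomers, and Arpc5l, for an Arp2/3 subunit, were at -0.16 (adjusted p = 0.355) and -0.15 (adjusted p = 0.312). Wasf2, for a WAVE protein, and Myh10, for a heavy chain of non-muscle myosin II, were at 0.35 (adjusted p = 0.161) and 0.33 (adjusted p = 0.245), and Cobl, which was called, is described next. Like Cfl1, all 3 genes near it were lowest in control 2, at -0.58, -0.61 and -0.60 from their own means. They were chosen for nearness to Cfl1 over the same 6 libraries, so this likeness follows largely from the choice.

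Other genes of the actin machinery were called in both directions. In 7 lists of 148 further genes, 136 passed the filter, 9 were under it and 3 were not matched. Of the 136, 3 rose and 3 fell, which is 4.41% against the 8.14% of all tested genes, and their median difference was -0.01. The count of 6 was 16 without control 1, 3 without Uba3 cKO 1 or 2, and 2 without Uba3 cKO 3 or control 3. Among 17 other formins and WH2-domain nucleators, 2 rose and none fell. Cobl, which nucleates filaments with WH2 domains as the SPIRE proteins do, stood at 9.81, 9.79 and 9.70 in Uba3 cKO and at 9.20, 8.80 and 9.15 in control libraries (0.72, SE 0.12, adjusted p = 0.00199 in limma), and it was called in all 6 fits that left out a library. This 1.64-fold higher level, without overlap, was the largest difference in these lists. Fmn1, a formin, averaged 9.52 ± 0.11 in Uba3 cKO and 9.15 ± 0.07 in control oocytes (SD, n = 3 each; 0.36, adjusted p = 0.0416), and its call ended without any library but control 1 (adjusted p up to 0.181).

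Among 7 other Arp2/3 subunits, 1 fell. Arpc3 stood at 10.68, 10.31 and 10.53 in Uba3 cKO and at 10.68, 11.14 and 11.14 in control libraries (-0.48, SE 0.13, adjusted p = 0.0412 in limma). The groups met at library 1 of each genotype, and the call ended without Uba3 cKO 2 or 3 or control 2 or 3 (adjusted p up to 0.182). Among 21 genes for Arp2/3 activators and the WAVE and WASH complexes, 1 rose and 1 fell. Washc3, a WASH subunit, was 6.72 ± 0.09 in Uba3 cKO and 7.19 ± 0.04 in control oocytes (SD, n = 3 each; -0.47, adjusted p = 0.00750), and remained called in all 6 fits with a library left out. Cyfip2, a WAVE subunit, was 10.41 ± 0.05 in Uba3 cKO and 10.07 ± 0.04 in control oocytes (0.35, adjusted p = 0.0339), a call that ended without any library but control 1 (adjusted p up to 0.107). None of 8 genes that inhibit Arp2/3 or remove branches was called by limma, and 1 had an unadjusted p under 0.05. The most abundant of these, Gmfb, a debranching factor, and Coro2b, a coronin, had differences of 0.16 (95% interval -0.08 to 0.41) and 0.09 (-0.21 to 0.39).

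None of 28 further genes of actin monomers, turnover and capping was called by limma (5 at an unadjusted p under 0.05), with a median difference of -0.03. Actb, the gene of cytoplasmic beta-actin, stood at 12.20, 12.48 and 12.24 in Uba3 cKO and at 12.20, 12.07 and 12.50 in control libraries (0.05, 95% interval -0.20 to 0.29). For unconventional myosins and Rab11 vesicles, 0 of 28 other genes were called by limma (4 at an unadjusted p under 0.05), with a median of -0.01. Rab11a, the GTPase that marks the vesicles of the cytoplasmic network, averaged 12.69 ± 0.05 in Uba3 cKO and 12.58 ± 0.11 in control oocytes (SD, n = 3 each; 0.11, 95% interval -0.08 to 0.29), and Myo5a had a difference of -0.03 (interval -0.21 to 0.16).

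Of 27 genes for myosin II and filament crosslinkers, 1 fell and the median difference was -0.07. Tpm1, a tropomyosin gene, stood at 9.74, 9.74 and 9.68 in Uba3 cKO and at 9.95, 10.21 and 10.32 in control libraries (-0.44, SE 0.11, adjusted p = 0.0236 in limma). The knockout libraries were all lower, and the call ended without Uba3 cKO 1 or 3 or control 2 or 3 (adjusted p up to 0.130). Like the summed stromal markers, Tpm1 was highest in control 3. That sum is led by the abundant markers Hsd3b1 (10.82 in control 2 and 11.43 in control 3) and Myh11 (11.03 and 11.42). Other markers, among them Cyp11a1, Cyp17a1 and Dcn, were highest in control 2 instead. Of the 5 smooth muscle genes in that marker list, Acta2 fell (-0.74, adjusted p = 0.0129 in limma), and the others were not called, at -0.48 for Tagln, -0.09 for Cnn1, -0.06 for Des and 0.17 for Myh11. The part of stromal RNA in the difference of Tpm1 was not tested.

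**Figure D5:**
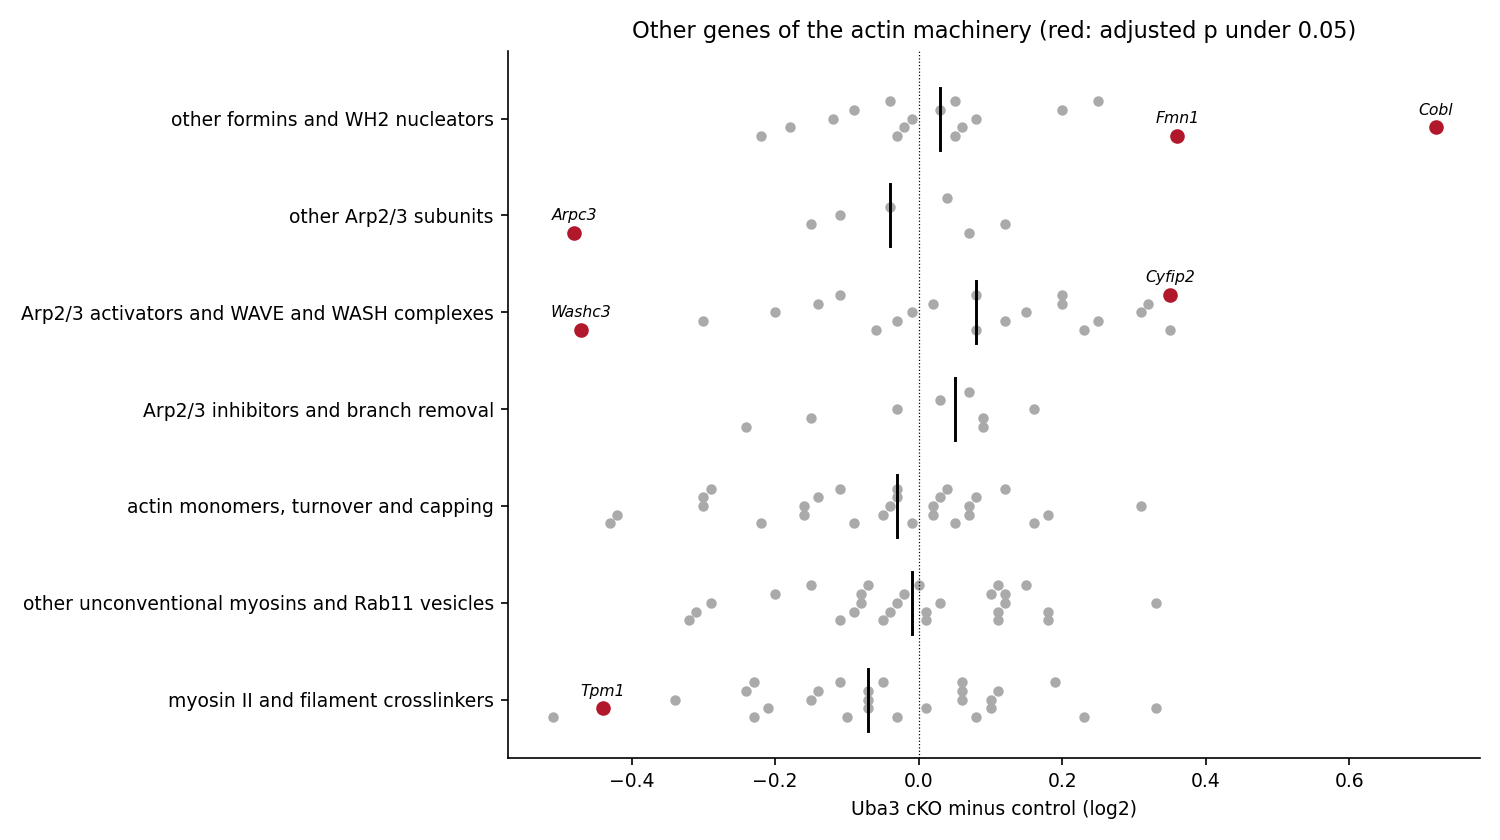
Log2 difference of each further actin gene that passed the filter, taken as Uba3 cKO minus control (horizontal axis), in 7 lists (rows); points are genes, red points are called and named, and black bars are list medians. The medians lie between -0.07 and 0.08, and 6 of 136 genes are called.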

How the data were processed

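Values were deposited on a log2 scale, already normalized by the authors. The table does not name the transform, and the values, which run from 0.0363 to 18.01 with no exact 0, have the shape of a regularized logarithm, which would shrink differences of genes at low levels. GRCm39, STAR, featureCounts, fastp and DESeq2 are listed, without versions, per the submitters' processing notes. Strand and multi-mapping settings are not given in the sources used here. Depth is unknown. Group and replicate came from the sample titles, and no column of values was left out.

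Symbols, chromosomes and transcripts came from GENCODE M21 (27660 of 28738 IDs matched, 96.2%), an annotation of an earlier build. The transcript of a gene was its best-ranked APPRIS principal transcript, the longest of equals. Where a gene had none, it was the longest protein-coding transcript, or else the longest transcript. Genes that reached 10 after undoing the logarithm (called linear values) in at least 3 libraries were tested, which kept 17450. Uba3 cKO was compared with control by the trended limma fit (limma 3.58.1, R 4.3.3), adjusted by Benjamini-Hochberg over all tested genes. The fit was checked on simulated data. Within-library ratios were compared by exact two-sided permutation. Near-identical transcripts (95% identity or more over 200 bases or more) were sought with BLAST 2.17.0. Alternatives changed the pseudocount, filter, scaling, variance model, sample weights, replicate block, a length and GC correction, and each library.

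The 10 genes and the lists were chosen with earlier results of these data known, and 1 list is not reported here. From each actin list the called genes were named, at most 4 by adjusted p, or, where none was called, the 2 most abundant, and for the 2 of the 10 genes with the smallest adjusted p the 3 nearest profiles. Other genes, all named markers among them, were named after their values were seen.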

Additional observations from a re-analysis of the deposited data

How the results depend on the processing

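Over 17 alternative fits, Spire1, Spire2 and Cfl1 kept their direction in all 17 and were each called in 11. The kept direction is no support for these genes. Their groups did not overlap, so leaving out a library could not reverse their sign. Nor do the filter, the variance model or the replicate block alter a difference of group means. Calls were lost for Spire2 after the length and GC correction (-0.36) and without an intensity trend (-0.45), and for Cfl1 under quantile normalization (0.58), without an intensity trend (0.60) and with robust empirical Bayes (0.60); without an intensity trend 1 of the 10 genes was called. The cause was not tested. With array weights 2298 genes were called in all and 14 of the further actin genes. Leaving out each library in turn gave differences of -0.37 to -0.25 for Spire1, -0.56 to -0.35 for Spire2 and 0.38 to 0.78 for Cfl1, with 0 to 3 of the 10 genes called, 618 to 1637 genes called in all and 2 to 16 of the further actin genes. In the same fits genes that were not called changed sign: Arpc2 (-0.09 to 0.02), Actr2 (-0.08 to 0.02), Myo5b (-0.11 to 0.02) and Myo10 (-0.09 to 0.29). Same-numbered libraries of the 2 genotypes did not deviate together (r of -0.085, -0.198 and -0.054), and 0 of 6 libraries correlated best with their own number. With the replicate block, Spire1 had -0.32 (adjusted p = 0.0615) and 2 of the 10 genes and 1258 in all were called. Over 10 alternatives for each, 5 of the 6 ratios kept their direction, while that of Myo10 to Myo5b ran from -0.08 to 0.35 as libraries were left out. Their exact permutation test could not go under p = 0.1. Depth is unknown, so no counting error can be given.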
